A study of Homo sapiens with 6 samples.

Results

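The proteasome genes described here are 47 of the 30099 genes listed for each library: 14 constitutive core subunits, 3 inducible catalytic subunits, 10 subunits of the regulatory base, 8 of the lid, 5 activators and inhibitors, and 7 assembly factors. They were listed by name, with earlier results of these data known, and all 47 have a value in every library. RNA from Pep2-E3 cells (3 libraries), which the labels describe as MDA-MB-231 in background with the genotype Pep-E3, was set against RNA from MDA-MB-231 cells marked as control (3 libraries). MDA-MB-231 is an established human breast cancer line. What the name Pep2-E3 stands for, and whether these cells are 1 clone, is not given in the sources used here. Levels are FPKM, that is fragments per kilobase of exon scaled by the library's total. The exon length takes in every annotated exon of a gene, so comparisons between genes depend on the annotation. PSMA4, with 6996 exon bases and 806 coding bases, averaged 17.6 FPKM in Pep2-E3 on 2019 to 2228 fragments per library. PSMB3, with 1179 exon bases and 615 coding bases, averaged 96.3 FPKM in Pep2-E3 on 1791 to 2118 fragments. Depth was 17154511 to 18206694 fragments per library.

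The proteasome is the cell's main protease for proteins tagged with ubiquitin. A barrel of alpha and beta rings, the core particle, holds the catalytic sites, which lie on the beta subunits PSMB5, PSMB6 and PSMB7. A regulatory particle caps the barrel: its base unfolds the substrate with a ring of ATPases, and its lid removes the ubiquitin. In cells exposed to interferon the inducible subunits PSMB8, PSMB9 and PSMB10 can replace the constitutive catalytic ones, which changes the peptides made for presentation on MHC class I.

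More proteasome transcripts were higher than lower in Pep2-E3 cells, by small amounts. Of the 45 members with a mean of at least 0.5 FPKM over the 6 libraries, 17 rose and 2 fell (limma's moderated test on log2(FPKM + 1), with p adjusted over all 14235 genes tested and called under 0.05). In that comparison 30.8% of all tested genes passed, 14.6% as higher and 16.2% as lower, against 42.2% of the tested members, 37.8% as higher and 4.44% as lower. The median log2 fold change of the tested members was 0.16, and that of all tested genes was -0.02. The 17 rises were small, between 11.9% and 46.3% in mean FPKM with a median of 24.1%. Groups did not overlap in 28 of the 45 members, 25 of them higher in Pep2-E3 and 3 lower, where 48.8% of all tested genes had groups that did not overlap (22.8% higher and 26% lower). In bulk RNA a change in RNA per cell cannot be told apart from a change in the share of cells that hold it.

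**Figure D1:**
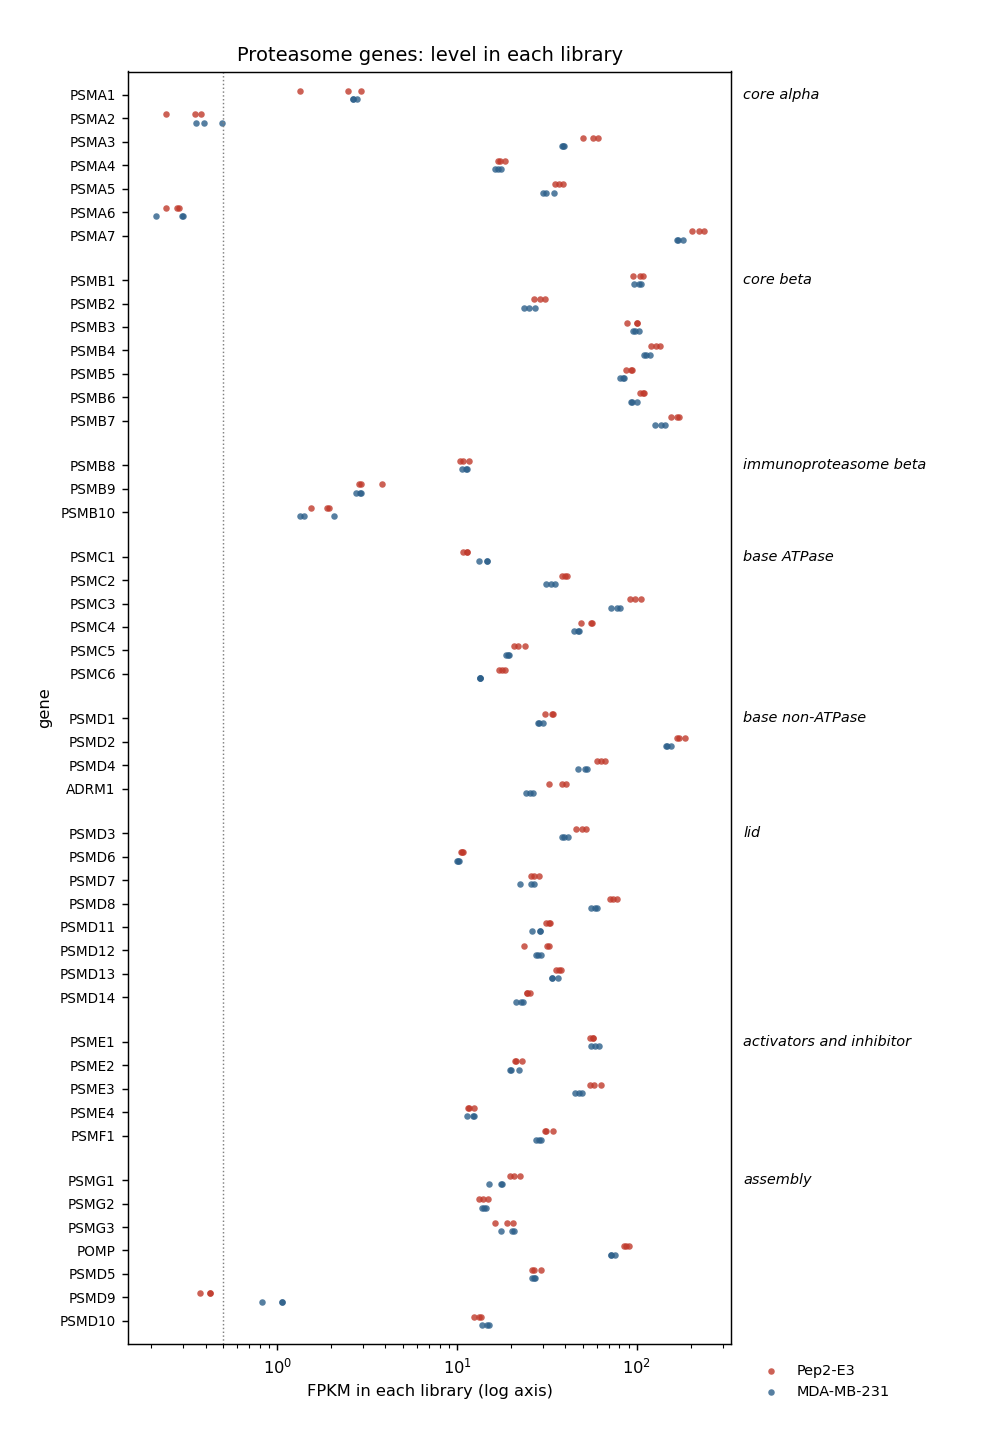
FPKM of each of the 47 proteasome genes in each library on a log axis, by class, with Pep2-E3 libraries in red above MDA-MB-231 libraries in blue. The dotted line marks 0.5 FPKM, the mean needed for testing; PSMA2 and PSMA6 lie to its left in all 6 libraries, and PSMA7 has the highest mean in both groups, at 220.2 FPKM in Pep2-E3 and 172 FPKM in MDA-MB-231.

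The summed level of the 47 genes was 2336, 2295 and 2159 FPKM in Pep2-E3 libraries, against 1966, 1898 and 2037 FPKM in MDA-MB-231 libraries. The groups did not overlap, and the ratio of their means was 1.15. The sums of the core alpha genes averaged 333.7 ± 15.6 FPKM in Pep2-E3 and 263 ± 10.4 FPKM in MDA-MB-231 (SD, n = 3 each), and those of the base ATPases 242 ± 13.6 FPKM in Pep2-E3 and 203 ± 9.21 FPKM in MDA-MB-231. The summed assembly factors stood at 182 ± 3.78 FPKM in Pep2-E3 and 166 ± 0.584 FPKM in MDA-MB-231. Such sums are weighted to the most abundant genes. In the core alpha sum PSMA7 alone averaged 220.2 FPKM in Pep2-E3 and 172 FPKM in MDA-MB-231. Among assembly factors POMP alone averaged 87.4 FPKM in Pep2-E3 and 73.1 FPKM in MDA-MB-231. The median log2 fold change of the 7 assembly factors was -0.02, with 3 positive and 4 negative. The sums of the inducible catalytic subunits overlapped between the groups, at 15.997 ± 0.663 FPKM in Pep2-E3 and 15.6 ± 0.547 FPKM in MDA-MB-231.

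Pep2-E3 replicate 1 stands apart from the other libraries of its group. The mean chi-square per gene of whole fragments was 14.8 and 19.3 between it and Pep2-E3 replicates 2 and 3, against 4.07 between those 2 libraries and 2.63 to 3.78 within MDA-MB-231. Its deviations from the group mean followed the GC content of genes, with a Spearman rho of 0.62 over the 45 tested members and 0.59 over all 14235 genes. Pep2-E3 replicate 3 followed it the other way, with a rho of -0.54 over members and -0.53 over all genes, and Pep2-E3 replicate 2 had -0.23 and -0.29, where the deviations of a group's 3 libraries sum to 0 for each gene. The log2 fold change between groups had a rho with GC of 0.09 over members and 0.19 over all genes (descriptions across genes, which share their libraries). Among the 17 members that rose, the highest Pep2-E3 value was in replicate 1 for 13 and in replicate 2 for 4. Without Pep2-E3 replicate 1, 16 members were higher and 2 lower. Those 16 were 35.6% of the tested members, beside 16.1% of all tested genes called higher. With each library corrected for GC content and exon length 17 were higher and 2 lower. Those 17 were 37.8% of the tested members, beside 19.9% of all tested genes called higher in that setting. There PSMB6, PSMC2 and POMP missed the threshold, and 3 members that had not passed before did so. The count of rises depended more on other libraries: it was 11 when Pep2-E3 replicate 2 was left out, or 24.4% of the tested members beside 9.77% of all tested genes. It was 9 when MDA-MB-231 replicate 1 was left out, or 20% of members beside 9.03% of all genes, and also 9 when the second MDA-MB-231 library was left out, or 20% beside 8.35%. The 2 falls were called whichever library was left out. No label says that replicates are separate cultures, so the spread between them may be technical.

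The cells carried the marks of the line. VIM, CD44, AXL and MSN, genes of mesenchymal-like breast cancer cells, of which AXL was lower in Pep2-E3 (-0.34 ± 0.08 on the log2 scale, adjusted p = 0.0170, limma), lay between 59.3 and 275.8 FPKM in all libraries, whereas the estrogen receptor gene ESR1, the progesterone receptor gene PGR and the epithelial cadherin gene CDH1 did not reach the filter and the epithelial gene EPCAM was at 1.93 to 2.90 FPKM. Of 9 defining genes of blood, endothelium, fibroblasts and liver, 6 had values, none over 1.39 FPKM and none at 0 in all 6 libraries. Their sum was 1.27 to 1.51 FPKM in Pep2-E3 and 1.86 to 2.08 FPKM in MDA-MB-231, and its part in the results was not tested.

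The promoters of the 4 risers with the smallest p, and of PSMC1 as the member that fell among its fellow ATPases, are shown because transcription of proteasome genes is known to be co-ordinated through their promoters. NFE2L1, which is activated when proteasome capacity is short, binds the antioxidant response element with the core TGACNNNGC, and NF-Y binds the CCAAT box. The windows run from 250 bases before to 50 after the start (RefSeq, GRCh38.p14), 5′ to 3′ on the gene's strand, which is + for all 5. They are chr14:52706950-52707249, chr14:58244593-58244892, chr19:38374321-38374620, chr20:62302646-62302945 and chr14:90256303-90256602 in the order printed. Capitals mark TGACNNNGC or its reverse complement GCNNNGTCA and CCAAT or its reverse complement ATTGG, which do not overlap each other here.
PSMC6: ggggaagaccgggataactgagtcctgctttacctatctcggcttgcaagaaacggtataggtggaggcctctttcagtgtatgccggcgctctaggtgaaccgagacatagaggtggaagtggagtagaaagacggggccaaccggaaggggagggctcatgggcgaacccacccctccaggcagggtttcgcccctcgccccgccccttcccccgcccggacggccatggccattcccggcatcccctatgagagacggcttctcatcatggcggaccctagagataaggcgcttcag
PSMA3: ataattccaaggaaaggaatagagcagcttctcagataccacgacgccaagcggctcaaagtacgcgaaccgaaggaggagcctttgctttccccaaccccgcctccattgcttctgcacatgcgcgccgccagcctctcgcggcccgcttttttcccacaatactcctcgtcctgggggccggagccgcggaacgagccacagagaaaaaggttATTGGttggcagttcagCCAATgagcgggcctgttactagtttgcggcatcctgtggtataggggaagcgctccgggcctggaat
PSMD8: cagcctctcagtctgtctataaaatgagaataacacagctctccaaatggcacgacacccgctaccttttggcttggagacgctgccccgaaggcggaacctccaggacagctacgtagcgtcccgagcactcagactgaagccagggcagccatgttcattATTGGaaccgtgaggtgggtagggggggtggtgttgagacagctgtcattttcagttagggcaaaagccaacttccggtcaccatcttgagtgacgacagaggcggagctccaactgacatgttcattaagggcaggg
ADRM1: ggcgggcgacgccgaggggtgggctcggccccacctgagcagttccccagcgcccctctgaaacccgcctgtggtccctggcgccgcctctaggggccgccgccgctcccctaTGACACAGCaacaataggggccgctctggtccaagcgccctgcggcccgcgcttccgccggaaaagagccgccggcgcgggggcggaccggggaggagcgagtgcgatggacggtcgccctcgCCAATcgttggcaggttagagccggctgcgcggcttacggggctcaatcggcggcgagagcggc
PSMC1: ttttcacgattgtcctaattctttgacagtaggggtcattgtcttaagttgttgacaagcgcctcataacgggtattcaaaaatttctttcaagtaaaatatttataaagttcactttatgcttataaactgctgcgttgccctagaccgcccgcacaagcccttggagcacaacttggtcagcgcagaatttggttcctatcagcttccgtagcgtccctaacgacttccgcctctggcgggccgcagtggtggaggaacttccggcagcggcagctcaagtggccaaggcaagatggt
ADRM1 holds a TGACNNNGC match that begins at position -137 from the start and a CCAAT box at position -14. PSMA3 holds 2 CCAAT boxes, the first at position -35, PSMD8 holds 1 at position -88, and the PSMC6 and PSMC1 windows hold neither motif. In all, 41 of the 47 members had promoter windows, 51 windows in all because some genes have several starts. TGACNNNGC was in 33.3% of these 51, against 13.3% of all 35116 promoter windows, and CCAAT in 41.2% against 34.6%. By gene, TGACNNNGC was found in 4 of 13 members that rose, in 1 of 2 that fell and in 11 of the other 26. CCAAT was found in 9 of 13, 0 of 2 and 11 of 26. Among all 27305 genes with windows, TGACNNNGC was found in 4384 and CCAAT in 10846. PSMA7, PSMB6, PSMB7 and PSMD4, which also rose, had no window. A match is a run of letters and not a measured binding site.

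Among the alpha subunits, which form the outer rings of the core and its gate, 2 of 5 tested members rose and none fell. Over all tested genes 14.6% were higher and 16.2% lower. PSMA3 was at 50.3, 61.01 and 57.2 FPKM in Pep2-E3 libraries, against 38.7, 38.3 and 39.1 FPKM in MDA-MB-231 libraries. All 3 Pep2-E3 values lay above every MDA-MB-231 value, and the MDA-MB-231 libraries were almost equal (log2 fold change 0.52 ± 0.07, adjusted p = 0.00323, limma, SE). PSMA7, the member with the highest mean FPKM, was at 235, 222 and 203 FPKM in Pep2-E3 libraries, against 168, 168 and 181 FPKM in MDA-MB-231 libraries. The groups did not overlap here either (log2 fold change 0.35 ± 0.06, adjusted p = 0.00850, limma). PSMA5 averaged 36.9 ± 1.71 FPKM in Pep2-E3 and 31.95 ± 2.24 FPKM in MDA-MB-231 without overlap of the groups, but missed the threshold (adjusted p = 0.0524, limma). PSMA5 passed the threshold when Pep2-E3 replicate 3 or MDA-MB-231 replicate 3 was left out (adjusted p = 0.0421 to 0.0496, limma). PSMA4 differed little, at 17.6 ± 0.807 FPKM in Pep2-E3 and 16.8 ± 0.635 FPKM in MDA-MB-231.

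PSMA1, PSMA2 and PSMA6, which each core particle also needs, were listed far below the other alpha subunits. PSMA1 was at 1.34, 2.93 and 2.47 FPKM in Pep2-E3 libraries, against 2.64, 2.80 and 2.63 FPKM in MDA-MB-231 libraries, and the groups overlapped (log2 fold change -0.22 ± 0.18, adjusted p = 0.405, limma). Without Pep2-E3 replicate 1, which had the lowest value, the log2 fold change was 0.0030. PSMA2 was at 0.240, 0.379 and 0.350 FPKM in Pep2-E3 libraries, against 0.495, 0.391 and 0.353 FPKM in MDA-MB-231 libraries, on 22 to 48 fragments. PSMA6 was at 0.242, 0.284 and 0.278 FPKM in Pep2-E3 libraries, against 0.212, 0.295 and 0.298 FPKM in MDA-MB-231 libraries, on 25 to 35 fragments. Both lie under the filter and were not tested. In GENCODE release 29 another gene on the same strand covers most of the coding bases of each: 88.6% of those of PSMA1, 97.1% of those of PSMA2 and 70.4% of those of PSMA6 lie in exons of other genes. No other alpha subunit has any such overlap. The one of these overlapping genes that the tables used here list, ENSG00000258790 at the PSMA6 locus, had 0 to 0.0570 FPKM. How fragments in shared exons were assigned is not given in the sources used here, and the part of the overlap in these low levels was not tested.

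Of the constitutive beta subunits, 2 of 7 rose and none fell. The 28.6% that passed lay near the 30.8% of all tested genes, of which 14.6% passed as higher and 16.2% as lower. PSMB7, which carries the trypsin-like site, was at 172, 168 and 154 FPKM in Pep2-E3 libraries, against 136, 127 and 143 FPKM in MDA-MB-231 libraries. PSMB6, which carries the caspase-like site, was at 109, 108 and 104 FPKM in Pep2-E3 libraries, against 92.98, 93.5 and 100 FPKM in MDA-MB-231 libraries. Both had groups that did not overlap, with a log2 fold change of 0.29 ± 0.06 for PSMB7 and 0.16 ± 0.05 for PSMB6 (adjusted p = 0.0158 and 0.0422, limma, SE). PSMB7 missed the threshold when Pep2-E3 replicate 2 or MDA-MB-231 replicate 1 or 2 was left out (adjusted p = 0.0553 to 0.0571, limma). PSMB6 missed the threshold when Pep2-E3 replicate 1 or 2 or MDA-MB-231 replicate 1 or 2 was left out (adjusted p = 0.0588 to 0.151, limma). In all, PSMB6 lost its call in 9 of 16 alternative settings. PSMB5, which carries the chymotrypsin-like site that bortezomib binds, was at 94.5, 93.1 and 87.2 FPKM in Pep2-E3 libraries, against 84.7, 80.1 and 83.5 FPKM in MDA-MB-231 libraries. Its Pep2-E3 values all lay higher, yet it missed the threshold (log2 fold change 0.14 ± 0.05, adjusted p = 0.0634, limma). PSMB4 likewise had groups apart at 127 ± 7.32 FPKM in Pep2-E3 and 113 ± 4.34 FPKM in MDA-MB-231 (adjusted p = 0.0698, limma). Each of PSMB5 and PSMB4 passed once Pep2-E3 replicate 3 was left out (adjusted p = 0.0352 for PSMB5 and 0.0318 for PSMB4, limma). PSMB1, PSMB2 and PSMB3 had overlapping groups, with log2 fold changes of 0.01, 0.18 and -0.03.

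None of the 3 inducible catalytic subunits passed the test, where 30.8% of all tested genes did. PSMB8 was at 10.8, 10.4 and 11.7 FPKM in Pep2-E3 libraries, against 11.2, 10.7 and 11.4 FPKM in MDA-MB-231 libraries. PSMB9 was at 3.83, 2.94 and 2.85 FPKM in Pep2-E3 libraries, against 2.76, 2.93 and 2.90 FPKM in MDA-MB-231 libraries. PSMB10 was at 1.95, 1.90 and 1.54 FPKM in Pep2-E3 libraries, against 2.08, 1.33 and 1.42 FPKM in MDA-MB-231 libraries. In all 3 genes the groups overlapped (adjusted p = 0.879, 0.412 and 0.549, limma). By FPKM the inducible genes were minor next to the subunits they replace. PSMB8 stood at 12.0% ± 1.23 of the PSMB5 level in Pep2-E3 and 13.4% ± 0.235 in MDA-MB-231, PSMB9 at 2.99% ± 0.442 of PSMB6 in Pep2-E3 and 3.00% ± 0.122 in MDA-MB-231, and PSMB10 at 1.09% ± 0.0782 of PSMB7 in Pep2-E3 and 1.19% ± 0.297 in MDA-MB-231 (SD, n = 3 each). The log2 ratio of inducible to constitutive gene, taken on FPKM + 1, differed by -0.16, -0.05 and -0.18 between the groups (exact two-sided permutation p = 0.2, 0.7 and 0.3, adjusted over the 3 ratios to 0.45, 0.7 and 0.45). The smallest p that 3 against 3 libraries allow is 0.1. Of the coding bases of PSMB10, 58.3% lie in exons of another gene on its strand, and 14.02% of those of PSMB8 overlap the opposite strand's PSMB8-AS1; the part of this in their levels was not tested.

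**Figure D2:**
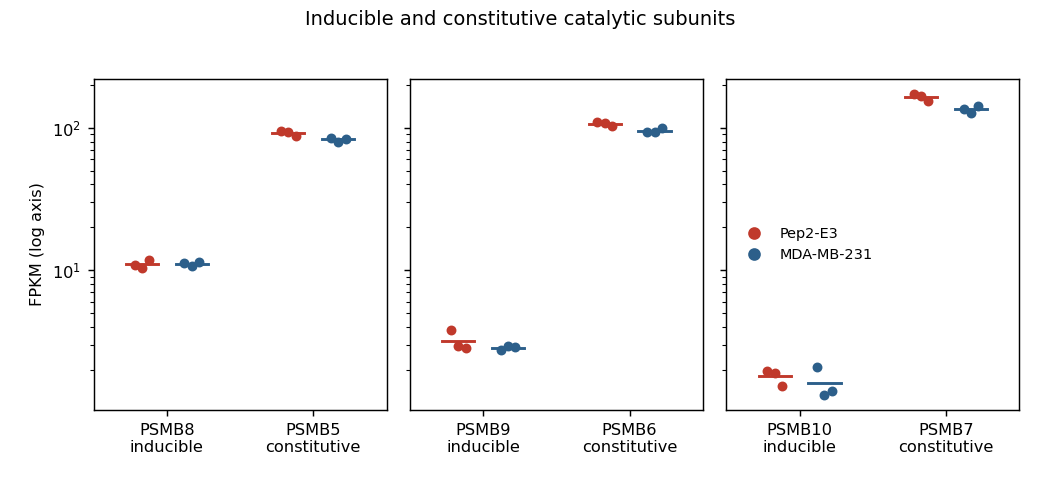
FPKM on a log axis of each inducible catalytic subunit beside the constitutive subunit it replaces, with Pep2-E3 libraries in red left of MDA-MB-231 libraries in blue; points are libraries and bars are means of 3. The inducible genes overlap between groups, whereas the points of PSMB5, PSMB6 and PSMB7 lie higher in Pep2-E3.

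The base held the most rises. Of its 10 members 7 rose and 1 fell, and in all 10 the groups did not overlap. Of all tested genes 14.6% were higher and 16.2% lower, and 48.8% had groups that did not overlap. Among the 6 ATPases, which form the ring that pulls the substrate into the core, PSMC6 was at 17.2, 18.5 and 17.8 FPKM in Pep2-E3 libraries, against 13.4, 13.3 and 13.4 FPKM in MDA-MB-231 libraries. It had the smallest p of all members, with 3 MDA-MB-231 values that were nearly identical (log2 fold change 0.39 ± 0.05, adjusted p = 0.00226, limma, SE). PSMC3 was at 105, 97.03 and 91.3 FPKM in Pep2-E3 libraries, against 77.3, 71.6 and 80.5 FPKM in MDA-MB-231 libraries. PSMC2 was at 41.1, 39.8 and 38.2 FPKM in Pep2-E3 libraries, against 33.1, 31.2 and 35.2 FPKM in MDA-MB-231 libraries. PSMC5 was at 23.8, 21.7 and 20.7 FPKM in Pep2-E3 libraries, against 19.2, 18.6 and 19.5 FPKM in MDA-MB-231 libraries. All 4 of these ATPases rose, with log2 fold changes of 0.35 ± 0.07 for PSMC3, 0.25 ± 0.06 for PSMC2 and 0.20 ± 0.06 for PSMC5 (adjusted p = 0.0107, 0.0182 and 0.0470, limma). PSMC2 missed the threshold when Pep2-E3 replicate 2 or MDA-MB-231 replicate 1 or 2 was left out (adjusted p = 0.0585 to 0.0680, limma). PSMC2 also missed it with the correction for GC content and exon length (adjusted p = 0.0530, limma). PSMC5 missed the threshold when Pep2-E3 replicate 2 or MDA-MB-231 replicate 1, 2 or 3 was left out (adjusted p = 0.0988 to 0.148, limma). PSMC4 averaged 53.7 ± 3.99 FPKM in Pep2-E3 and 46.5 ± 1.54 FPKM in MDA-MB-231 and missed the threshold (adjusted p = 0.0526, limma), passing once Pep2-E3 replicate 3 was left out (adjusted p = 0.0142, limma). PSMC5 overlaps FTSJ3 on the opposite strand over 10.5% of its coding bases, and FTSJ3 was itself higher (0.26 ± 0.07 on the log2 scale, adjusted p = 0.0330, limma).

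PSMC1 went against the other ATPases. It was at 11.4, 11.3 and 10.7 FPKM in Pep2-E3 libraries, against 14.6, 13.3 and 14.7 FPKM in MDA-MB-231 libraries. All Pep2-E3 values lay below every MDA-MB-231 value (log2 fold change -0.32 ± 0.06, adjusted p = 0.00869, limma), and the fall was called in all 16 alternative settings. Exons on the opposite strand, chiefly those of NRDE2, cover 47.7% of its coding bases and 75.8% of its exon bases, and the library kit does not mark strand. NRDE2 averaged 1.05 FPKM in Pep2-E3 and 1.44 FPKM in MDA-MB-231 and was lower as well (-0.25 ± 0.07, adjusted p = 0.0434, limma). Within the shared bases, reads of the pair cannot be told apart. When the longest PSMC1 transcript was split into every stretch of 50 bases, 29.03% of them were also found in transcripts of other genes, mostly the pseudogene PSMC1P1. The promoter window shown above holds neither motif, nor does that of PSMC6, which rose.

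The other base subunits scaffold the ring or bind ubiquitin. ADRM1, a ubiquitin receptor that also anchors the deubiquitinase UCHL5, was at 40.5, 38.3 and 32.6 FPKM in Pep2-E3 libraries, against 26.4, 24.1 and 25.6 FPKM in MDA-MB-231 libraries. This was the largest rise in log2 terms among the members (log2 fold change 0.53 ± 0.08, adjusted p = 0.00535, limma, SE). Its promoter window is the one above that holds both motifs, and the part of the motifs in its level was not tested. Exons on the opposite strand, chiefly those of LAMA5, cover 29.6% of its coding bases, and LAMA5 averaged 29.64 FPKM in Pep2-E3 and 33.2 FPKM in MDA-MB-231, opposite in sign to ADRM1 (adjusted p = 0.114, limma). PSMD4, a second ubiquitin receptor, was at 66.6, 63.1 and 59.7 FPKM in Pep2-E3 libraries, against 51.2, 47.1 and 53.1 FPKM in MDA-MB-231 libraries. The scaffold PSMD2 was at 185, 171 and 167 FPKM in Pep2-E3 libraries, against 147, 145 and 154 FPKM in MDA-MB-231 libraries. Both rose without overlap of the groups (log2 fold change 0.32 ± 0.06 for PSMD4 and 0.22 ± 0.05 for PSMD2, adjusted p = 0.0115 and 0.0201, limma). PSMD2 missed the threshold when Pep2-E3 replicate 2 or MDA-MB-231 replicate 1 or 2 was left out (adjusted p = 0.0548 to 0.0774, limma). PSMD1, the other large scaffold, averaged 33.01 ± 1.80 FPKM in Pep2-E3 and 29.01 ± 0.964 FPKM in MDA-MB-231 and fell just short (adjusted p = 0.0502, limma), passing once Pep2-E3 replicate 2 was left out (adjusted p = 0.0412, limma).

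Of the 8 lid subunits 3 rose and none fell. The rises made up 37.5% of the lid, where 14.6% of all tested genes were higher and 16.2% lower. PSMD8 was at 77.5, 73.4 and 70.7 FPKM in Pep2-E3 libraries, against 58.6, 55.6 and 60.01 FPKM in MDA-MB-231 libraries. PSMD3 was at 52.1, 49.8 and 45.998 FPKM in Pep2-E3 libraries, against 39.4, 38.6 and 41.2 FPKM in MDA-MB-231 libraries. PSMD11 was at 32.8, 32.3 and 31.1 FPKM in Pep2-E3 libraries, against 29.05, 26.02 and 28.9 FPKM in MDA-MB-231 libraries. Each had groups apart, with log2 fold changes of 0.34 ± 0.05, 0.30 ± 0.06 and 0.19 ± 0.06 in that order of genes (adjusted p = 0.00479, 0.0102 and 0.0450, limma). PSMD11 missed the threshold with any 1 of the 6 libraries left out (adjusted p = 0.0547 to 0.136, limma). PSMD14, the metalloprotease that cuts ubiquitin off the substrate, averaged 24.8 ± 0.670 FPKM in Pep2-E3 and 22.4 ± 0.922 FPKM in MDA-MB-231 with groups apart and did not pass (adjusted p = 0.0773, limma). PSMD6, PSMD7, PSMD12 and PSMD13 had log2 fold changes between 0.02 and 0.11 and did not pass. PSMD12 was at 23.5, 31.5 and 32.4 FPKM in Pep2-E3 libraries, against 28.4, 27.5 and 29.3 FPKM in MDA-MB-231 libraries. Its Pep2-E3 replicate 1 value was the lowest of the 6 and the other 2 Pep2-E3 values were the highest. Without that library its log2 fold change was 0.17 (adjusted p = 0.0303, limma).

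Among the activators, only PSME3, the nuclear activator that works without ubiquitin, passed, where 30.8% of all tested genes did. It was at 63.3, 57.9 and 55.1 FPKM in Pep2-E3 libraries, against 47.7, 45.4 and 49.8 FPKM in MDA-MB-231 libraries, with groups apart (log2 fold change 0.30 ± 0.06, adjusted p = 0.0153, limma). PSME3 missed the threshold when MDA-MB-231 replicate 1 or 2 was left out (adjusted p = 0.0557 to 0.0626, limma). The interferon-inducible activator subunits did not pass: PSME1 averaged 56.5 ± 1.22 FPKM in Pep2-E3 and 58.8 ± 2.92 FPKM in MDA-MB-231, and PSME2 21.7 ± 1.17 FPKM in Pep2-E3 and 20.7 ± 1.33 FPKM in MDA-MB-231 (adjusted p = 0.444 and 0.440, limma). PSME4 had a log2 fold change of -0.02 ± 0.06. PSMF1, first described as an inhibitor, averaged 31.9 ± 1.77 FPKM in Pep2-E3 and 28.4 ± 0.952 FPKM in MDA-MB-231 with groups apart, and did not pass either (adjusted p = 0.0690, limma).

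The assembly factors moved in both directions. POMP, which chaperones the maturing core, was at 86.7, 90.3 and 85.3 FPKM in Pep2-E3 libraries, against 75.3, 72.002 and 72.1 FPKM in MDA-MB-231 libraries. PSMG1, of the chaperone pair that builds the alpha ring, was at 19.6, 22.3 and 20.7 FPKM in Pep2-E3 libraries, against 15.1, 17.8 and 17.5 FPKM in MDA-MB-231 libraries. Both rose with groups apart (0.25 ± 0.04 for POMP and 0.30 ± 0.08 for PSMG1 on the log2 scale, adjusted p = 0.00711 and 0.0292, limma). PSMG1 missed the threshold when Pep2-E3 replicate 2 or 3 or MDA-MB-231 replicate 1, 2 or 3 was left out (adjusted p = 0.0541 to 0.0913, limma). With the correction for GC content and exon length POMP stood at 0.40 and missed the threshold (adjusted p = 0.0531, limma). PSMG2, the partner of PSMG1, did not pass, at 13.99 ± 0.798 FPKM in Pep2-E3 and 14.2 ± 0.330 FPKM in MDA-MB-231. The chaperones of the base differed. PSMD9 was at 0.425, 0.422 and 0.372 FPKM in Pep2-E3 libraries, against 0.822, 1.06 and 1.07 FPKM in MDA-MB-231 libraries. Its mean was 58.6% lower in Pep2-E3, which the log2(FPKM + 1) scale understates (log2 fold change -0.49 ± 0.09, adjusted p = 0.00950, limma; -1.26 by limma-voom on fragments). It rested on 56 to 169 fragments per library, and 58.7% of its coding bases lie in exons of another gene on its strand. PSMD10, also known as the oncoprotein gankyrin, averaged 13.1 ± 0.624 FPKM in Pep2-E3 and 14.5 ± 0.642 FPKM in MDA-MB-231, with every Pep2-E3 value lower, and did not pass (adjusted p = 0.121, limma). PSMD5 averaged 27.4 ± 1.66 FPKM in Pep2-E3 and 26.7 ± 0.425 FPKM in MDA-MB-231 and PSMG3 18.6 ± 2.13 FPKM in Pep2-E3 and 19.5 ± 1.69 FPKM in MDA-MB-231, with overlapping groups.

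**Figure D3:**
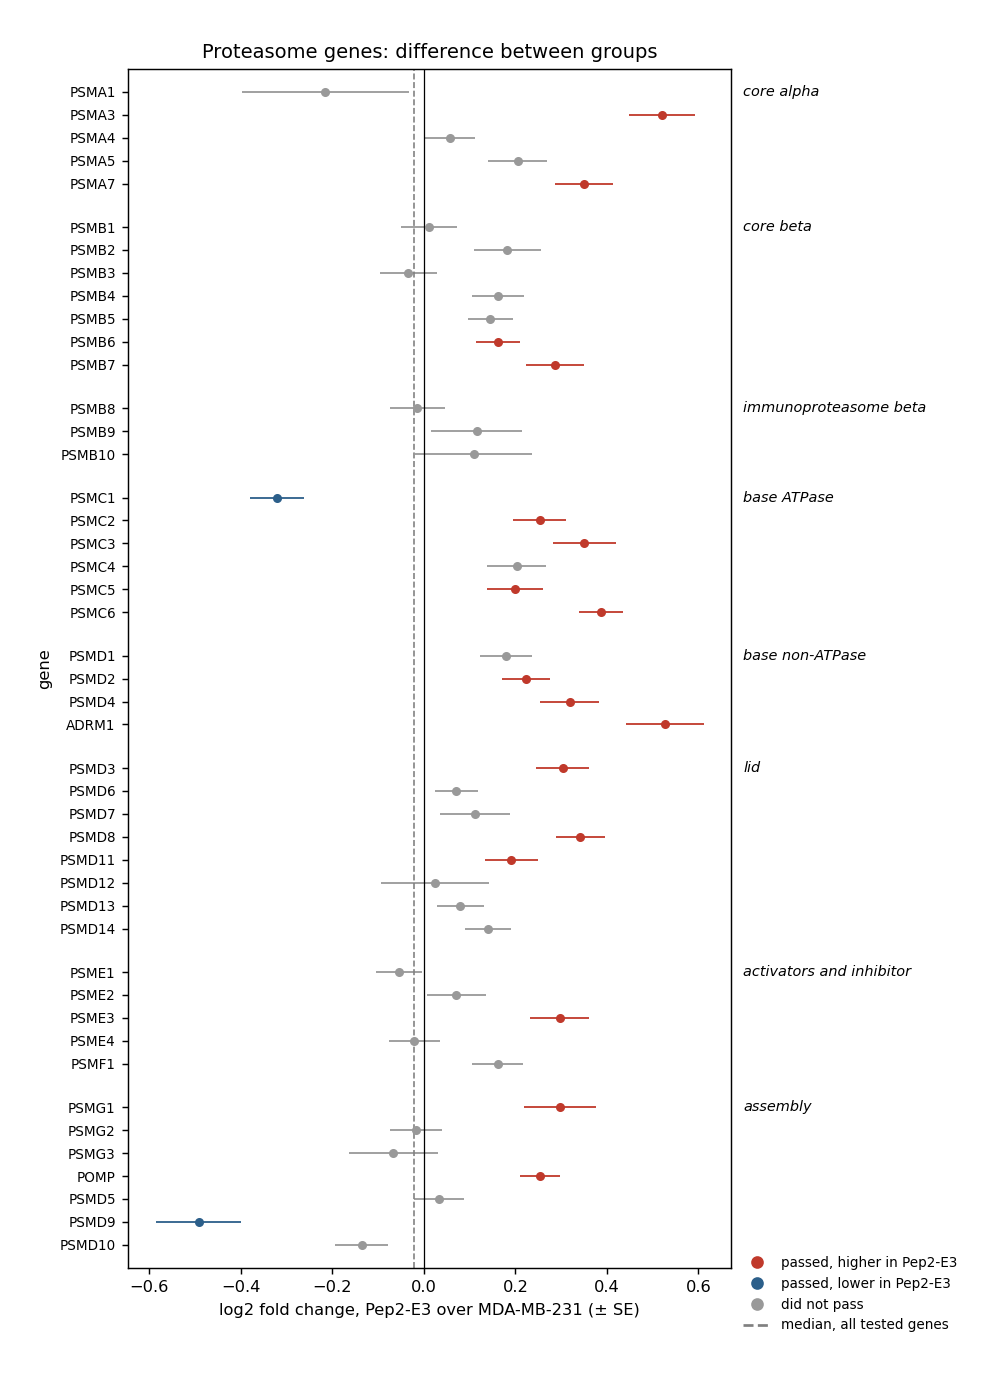
Log2 fold change on log2(FPKM + 1), Pep2-E3 over MDA-MB-231, with its SE for the 45 tested proteasome genes by class; red and blue genes passed as higher and lower, grey genes did not pass, and the dashed line is the median of all tested genes at -0.02. Of the members 35 lie right of 0, and PSMC1 and PSMD9 are the 2 that passed on the left.

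Some of the members with large changes lie among neighbours whose median change had the same sign. For this description, each tested gene was given the median log2 fold change of the 20 nearest tested genes on either side, which lay between -0.25 and 0.12 from the 5th to the 95th percentile of tested genes. Coordinates are GRCh38, from GENCODE release 29. PSMC6 (ENSG00000100519, chromosome 14, 52707172 to 52728587) had 40 neighbours with a median of 0.19, of which 10 were called higher and 0 lower. PSMA3 (ENSG00000100567, chromosome 14, 58244831 to 58272012) had neighbours with a median of 0.16, of which 9 were higher and 2 lower. Both genes lie above their neighbours, at 0.39 and 0.52. PSMC1 (ENSG00000100764, chromosome 14, 90256495 to 90275429) sits at a step on the same chromosome. The 20 tested genes before it had a median of 0.23, with 8 higher and 3 lower, and the 20 after it had a median of -0.39, with 1 higher and 14 lower. PSMC1 itself, at -0.32, is nearer to the median after it. The members nearer the start of chromosome 14, PSMB5, PSME1 and PSME2, had neighbour medians of 0.003, -0.006 and -0.01, and none of the 3 passed.

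**Figure D4:**
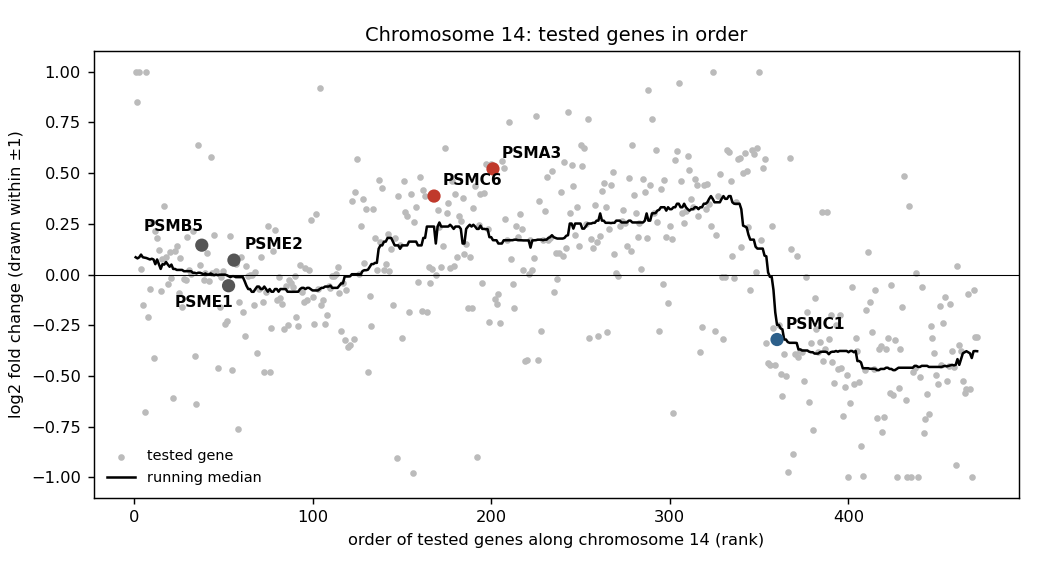
Log2 fold change, Pep2-E3 over MDA-MB-231, of the 472 tested genes of chromosome 14 in their order along the chromosome, drawn within ±1, with a running median over each gene and 20 genes to either side. PSMC6 and PSMA3 (red) lie in a raised stretch, PSMC1 (blue) lies at the start of a lowered one, and PSMB5, PSME1 and PSME2 (dark grey) lie where the running median is near 0.

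PSMD9 (ENSG00000110801, chromosome 12, 121888731 to 121918297) had the lowest neighbour median of the tested members: -0.29, with 0 genes higher and 20 lower among 40. PSMA7 (ENSG00000101182, chromosome 20, 62136735 to 62143440) had a neighbour median of 0.13, with 14 higher and 8 lower, and it shares part of its neighbourhood with ADRM1 (ENSG00000130706, chromosome 20, 62302093 to 62308862), whose neighbour median was 0.08. For the 14 called members other than PSMC6, PSMA3, PSMC1, PSMD9 and PSMA7 the neighbour medians lay between -0.10 and 0.08, all of them rises. Outside chromosome 14, 15 members rose and 1 fell of 39 tested, or 38.5% and 2.56%. Among the 35 members with under 10% of exon bases overlapping another gene, 15 rose, or 42.9%, and 0 fell (limma adjusted p under 0.05). Of those 35, Pep2-E3 values all lay higher in 22 and all lay lower in 1. Over all tested genes 14.6% were called higher and 16.2% lower. Groups did not overlap in 22.8% of all tested genes as higher and in 26% as lower. The part of chromosomal position in these changes was not tested.

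**Figure D5:**
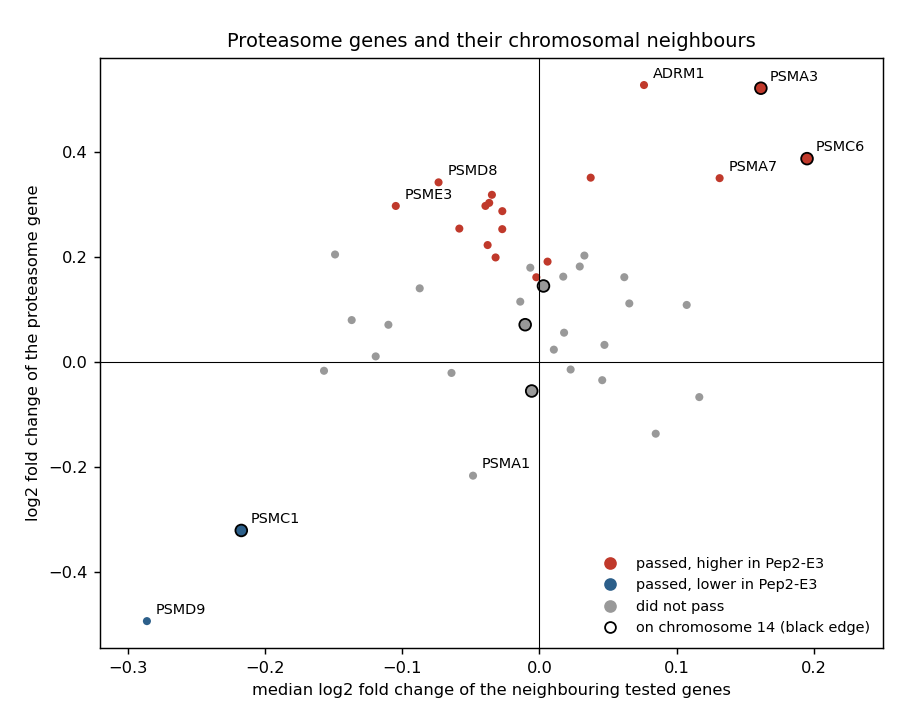
Log2 fold change of each of the 45 tested proteasome genes (vertical) against the median log2 fold change of its neighbouring tested genes (horizontal), both Pep2-E3 over MDA-MB-231; black edges mark members on chromosome 14. PSMD9 and PSMC1 lie at the lower left and PSMC6, PSMA3 and PSMA7 at the upper right, while most of the other red points lie over neighbour medians near 0.

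Few of the enzymes and shuttles that work with the proteasome passed, where 30.8% of all tested genes did (14.6% higher and 16.2% lower). Of 4 further subunits and assembly genes tested (PSMG4, SEM1, PAAF1 and ECPAS) 0 passed in limma's test, and 0 had an unadjusted p under 0.05. Of 13 associated enzymes and shuttles, such as the deubiquitinase USP14 and the ubiquitin shuttle RAD23B, 1 was higher and 0 lower. That gene was TXNL1, a thioredoxin-like partner of the lid, at 5.66, 6.13 and 6.10 FPKM in Pep2-E3 libraries, against 5.41, 4.39 and 4.62 FPKM in MDA-MB-231 libraries. It barely passed (adjusted p = 0.0453, limma). UCHL5, which docks on ADRM1, averaged 15.2 ± 3.62 FPKM in Pep2-E3 and 15.8 ± 0.487 FPKM in MDA-MB-231.

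Of 10 regulators of subunit transcription 2 were higher and 1 lower, a share near the 30.8% of all tested genes that passed. NFE2L1 was at 70.3, 64.7 and 62.9 FPKM in Pep2-E3 libraries, against 57.1, 54.9 and 54.8 FPKM in MDA-MB-231 libraries. NFYA, the subunit of NF-Y that contacts the CCAAT box, was at 24.8, 26.04 and 26.1 FPKM in Pep2-E3 libraries, against 18.8, 18.3 and 18.6 FPKM in MDA-MB-231 libraries. Both had groups apart (0.24 ± 0.05 for NFE2L1 and 0.45 ± 0.05 for NFYA on the log2 scale, adjusted p = 0.0167 and 0.00133, limma, SE). BACH1, a repressor of antioxidant response element genes, was at 4.61, 5.28 and 6.22 FPKM in Pep2-E3 libraries, against 7.84, 7.81 and 7.51 FPKM in MDA-MB-231 libraries, lower without overlap (log2 fold change -0.46 ± 0.09, adjusted p = 0.0126, limma). NFE2L2, the factor related to NFE2L1, averaged 18.2 ± 1.70 FPKM in Pep2-E3 and 18.2 ± 0.280 FPKM in MDA-MB-231 (adjusted p = 0.952, limma). It was at 16.2, 19.2 and 19.1 FPKM in Pep2-E3 libraries, against 18.3, 17.9 and 18.4 FPKM in MDA-MB-231 libraries. Pep2-E3 replicate 1 held its lowest value, and the other Pep2-E3 libraries held its highest. The polyubiquitin gene UBB was at 89.2, 87.1 and 78.97 FPKM in Pep2-E3 libraries, against 64.6, 73.9 and 71.1 FPKM in MDA-MB-231 libraries. Its groups did not overlap (0.28 ± 0.07 on the log2 scale, adjusted p = 0.0236, limma). The ubiquitin fusion gene RPS27A averaged 123 FPKM in Pep2-E3 and 111 FPKM in MDA-MB-231, and did not pass.

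Among the genes that process antigen beside the immunoproteasome or induce it, ERAP1 and IRF1 were higher. The trimming peptidase ERAP1 was at 8.76, 8.34 and 8.41 FPKM in Pep2-E3 libraries, against 7.19, 7.10 and 6.70 FPKM in MDA-MB-231 libraries. IRF1, a transcription factor that induces PSMB8 and PSMB9, was at 1.23, 1.18 and 1.46 FPKM in Pep2-E3 libraries, against 0.756, 0.880 and 0.958 FPKM in MDA-MB-231 libraries. The groups did not overlap in either gene (0.25 ± 0.05 for ERAP1 and 0.29 ± 0.09 for IRF1 on the log2 scale, adjusted p = 0.0147 and 0.0478, limma). The peptide transporter genes TAP1 and TAP2, which neighbour PSMB9 and PSMB8 in the MHC region, averaged 12.5 and 18.4 FPKM in Pep2-E3, against 12.7 and 17.4 FPKM in MDA-MB-231, and did not pass.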

How the data were processed

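RNA from 3 Pep2-E3 and 3 MDA-MB-231 samples was sequenced after Trizol extraction with a NEBNext Ultra kit, per the labels' protocols. The submitters' processing notes name HISAT2 2, Bowtie2 2.2.3 and HTSeq 0.6.0 and give a mouse build, while the gene identifiers are human. The authors deposited FPKM per gene, per the file headers. Counting settings are not given in the sources used here. FPKM times exon length (GENCODE release 29) and library total gave whole fragments for 100% of values within 0.001, and these were used for depth and for limma-voom, which called 4760 genes.

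Members were found by GENCODE name. The members and all gene lists were chosen with earlier results of these data known. The test was limma-trend 3.58.1 (R 4.3.3) on log2(FPKM + 1), group as the only term, over 14235 genes with a mean of at least 0.5 FPKM, with Benjamini-Hochberg adjustment at 0.05. It was also run on simulated counts, which had no GC-linked differences between libraries and so do not cover that feature of these data. A log2 fold change on this scale understates the change of low genes. Ratios were tested by exact permutation over libraries (scipy 1.17.1). Named genes are all 47 members, with library values mainly for those that passed and the catalytic subunits, and the genes that passed with the 2 smallest p-values in each direction of each other list; further genes were named after their values were seen. Some genes of these lists are not reported here. Alternatives were 3 scalings, 2 filters, pseudocounts of 0.1 and 5, limma-voom on fragments, the replicate block, a correction for GC content and exon length (splines with 5 degrees of freedom), and leaving out each library.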

Additional observations from a re-analysis of the deposited data

How the results depend on the processing

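The median log2 fold change of tested members stayed positive, between 0.13 and 0.19, in every alternative run. The number of members called higher was 12 without a filter, 15 outside chromosome 14, 15 with little exon overlap, 16 to 20 under the other scalings, filters, pseudocounts, limma-voom and the GC correction, and 9 to 19 with 1 library left out; the number called lower was 2, except 1 with a filter of 1 FPKM, which removes PSMD9, 1 outside chromosome 14 and 0 with little exon overlap. The share of all tested genes called higher moved as well, from 14.6% in the main fit. It was 5.35% without a filter, beside 25.5% of the members, and 19.9% with the GC correction. Under the other scalings, filters, pseudocounts and limma-voom it was 14.4% to 16.2%. With 1 library left out it was 8.35% to 16.1%. Over all genes, 2474 to 4857 were called with 1 library left out, against 4383. With the replicate block 11 members were higher, 2 lower and 2966 genes were called, with 9.58% of all tested genes higher. In that setting 6 of the 19 calls were lost. The deviations of same-numbered libraries had correlations of -0.042, 0.038 and -0.061, and those of differently numbered libraries -0.052 to 0.087. With 3 libraries per group these values cannot decide whether the numbers pair the samples. Of the 19 calls, 10 held in every alternative that could test them (PSMA3, PSMA7, PSMC3, PSMC6, PSMD3, PSMD4, PSMD8, ADRM1, PSMC1 and PSMD9), and 0 changed sign. Signs changed 19 times in 9 members that had not passed. With RLE factors and upper-quartile factors PSMB8 moved to 0.010 and 0.014, PSME4 to 0.0035 and 0.0078, and PSMG2 to 0.0079 and 0.012, and with the GC correction PSME4 moved to 0.10. With 1 library left out PSMA1 ranged from -0.37 to 0.0030, PSMB1 from -0.027 to 0.062, PSMB3 from -0.068 to 0.024, PSMB8 from -0.058 to 0.019, PSMD5 from -0.014 to 0.066, PSMD12 from -0.056 to 0.17, PSMG2 from -0.057 to 0.019 and PSMG3 from -0.14 to 0.020. The log2 difference in the PSMB9 to PSMB6 ratio ranged from -0.13 to 0.0032 with 1 library left out; its replicate block value was -0.046, and those for the PSMB8 to PSMB5 and PSMB10 to PSMB7 ratios were -0.16 and -0.18 (exact sign-flip test over 3 pairs). The causes of these changes were not tested. PSMD9 stood at -1.09 and -0.15 with pseudocounts of 0.1 and 5. Depth limits PSMA2, PSMA6 and PSMB10 most, with at most 48, 35 and 70 fragments in a library.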
